A study of Mus musculus with 15 samples.

Results

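The 9 genes described here make, bind or degrade retinoic acid or import its precursor: Stra6, Rdh10, Aldh1a1, Aldh1a2, Aldh1a3, Cyp26a1, Cyp26b1, Crabp1 and Crabp2. They were taken by symbol from the RNA-seq table, and all 9 had a row among its 27697 gene symbols. RNA was measured in 3 libraries of preSertoli cells, fetal forerunners of the Sertoli cells that surround and nurse germ cells in the testis, sorted by flow cytometry from E15.5 embryos of a C57BL/6J x CD-1 (F1) cross. About 165 embryos were divided into 3 pools that the labels call biological replicates, so each library averages many animals and no single embryo is represented. The RNA-seq labels give no genotype beyond the cross, while the labels of the DNase-seq samples of the same cell type name male embryos with a Sox9-ECFP reporter, heterozygous for Sox9. The series holds 15 samples, among them DNase-seq of 8 cell types or stages and H3K27ac ChIP-seq of preSertoli cells. There is 1 RNA group, so levels are described and no treatment, stage or sex is compared.

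Retinoic acid is made from vitamin A (retinol) inside the cell. STRA6 is a membrane receptor that takes up retinol from its plasma carrier, RDH10 oxidises retinol to retinaldehyde, and the ALDH1A enzymes oxidise retinaldehyde to retinoic acid. CRABP proteins bind retinoic acid in the cytoplasm, and CYP26 enzymes hydroxylate and so inactivate it. The product acts through nuclear receptors (RAR and RXR) on target genes. In the fetal gonad, retinoic acid is known to promote entry of female germ cells into meiosis, and CYP26B1 in the somatic cells of the fetal testis is known for keeping retinoic acid away from male germ cells.

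The libraries held 47.8, 56.0 and 51.7 M expected counts (reads assigned to genes by RSEM), summed over all 28427 rows with 426 exact repeats included. On that total 1 read corresponded to 0.0179 to 0.0209 CPM (counts per 1000000 of the library's expected counts). The term expressed is used here for a gene with at least 1 CPM in each library. The labelled cell type was set against marker genes. Of the Sertoli list 10 of 10 genes were expressed, led by Amh (2048 ± 678 CPM; every ± is an SD over n = 3 libraries) and Gata4 (744 ± 17.7 CPM). Genes of fetal Leydig cells, the androgen-producing cells outside the cords, had 6 of 6 expressed, with a list median of 337 CPM against 397 CPM for the Sertoli list, so the count of expressed markers does not set the 2 cell types apart. Among them were Cyp17a1 at 676 ± 145 CPM and Nr5a1, which Sertoli cells express too, at 511 ± 26.2 CPM. In bulk samples such as these, fewer cells of a type and less RNA per cell cannot be told apart.

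Of the 9 retinoic acid genes, 6 were expressed, against 47.1% of all symbols: Aldh1a1, Cyp26b1, Stra6, Aldh1a2, Rdh10 and Aldh1a3. Crabp1, Crabp2 and Cyp26a1 were not. The count was also 6 at a threshold of 0.5 CPM, which 50.5% of all symbols reached, and at 5 CPM, which 39.1% reached. Their levels spanned nearly the whole range of the table, from the symbol at rank 6 by mean CPM (Aldh1a1) to rank 19953 (Cyp26a1). Their median was 8.61 CPM, against 0.712 CPM over all symbols and 32.6 CPM over the 13036 expressed symbols. CPM is not divided by transcript length, and lengths were not used here, so an order of genes is an order of reads and not of transcripts.

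**Figure D1:**
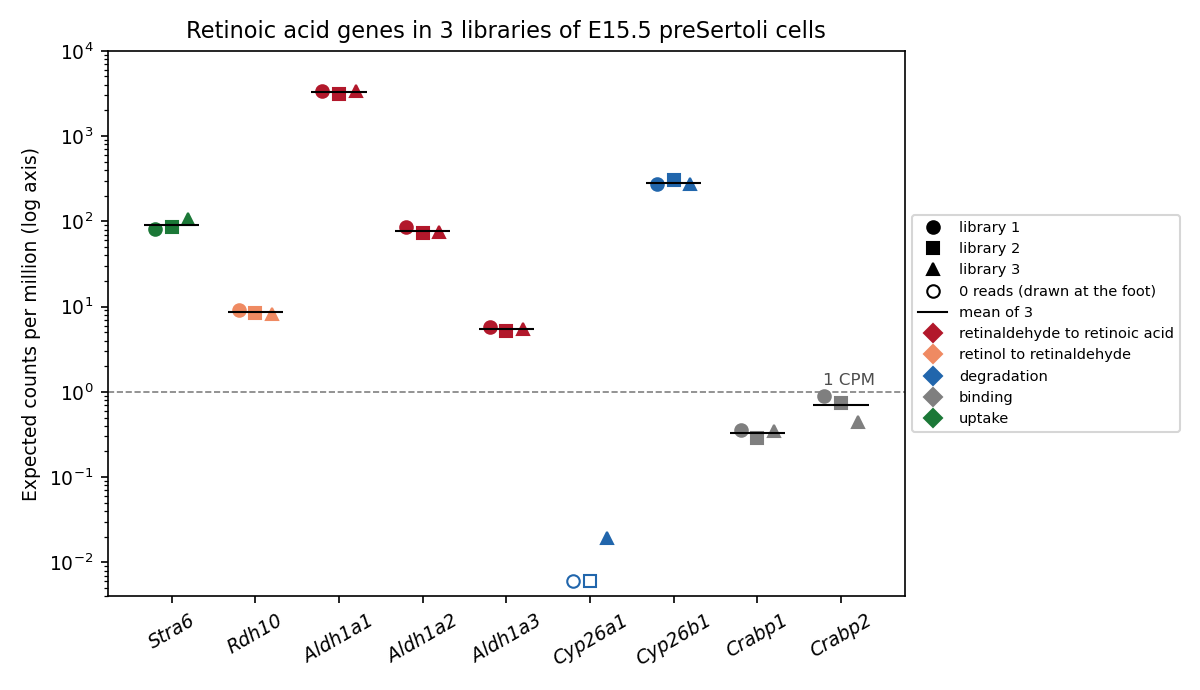
CPM on a log axis of each of the 9 genes in each of the 3 libraries, coloured by role, with the mean as a bar. The 6 expressed genes lie above the dashed line at 1 CPM in every library, Aldh1a1 stands at 3084 CPM or more, and Cyp26a1 has a single read in 1 library (open symbols mark 0 reads).

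The retinol receptor gene Stra6 was read at 82.4, 86.7 and 105 CPM, from 3934, 4858 and 5443 reads. Library 3 was the highest, and the mean was 91.4 ± 12.1 CPM. Among the expressed members Stra6 varied most between libraries, with a coefficient of variation of 13.3%, which 84.9% of expressed symbols did not exceed.

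Rdh10, the retinol dehydrogenase that is required for retinoic acid synthesis in the mouse embryo, was low. It gave 9.15, 8.45 and 8.24 CPM, from 437, 473 and 426 reads, with a mean of 8.61 ± 0.478 CPM. The libraries lay close together, with a coefficient of variation of 5.55% against a median of 6.75% over expressed symbols.

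The 3 retinaldehyde dehydrogenases differed widely in reads. Aldh1a1 gave 3415, 3084 and 3385 CPM and a mean of 3295 ± 183 CPM. Library 2 was the lowest, and even there Aldh1a1 took 0.308% of all expected counts. Aldh1a2, the enzyme that makes most retinoic acid in the early embryo, gave 86.7, 72.1 and 74.6 CPM, with library 1 above the others and a mean of 77.8 ± 7.80 CPM. Aldh1a3 gave 5.76, 5.12 and 5.43 CPM, from 275, 287 and 281 reads, with a mean of 5.44 ± 0.316 CPM.

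Within each library Aldh1a1 supplied nearly all Aldh1a reads. Its share of the reads of the 3 genes was 97.4%, 97.6% and 97.7%, while Aldh1a2 held 2.30% ± 0.160 and Aldh1a3 0.161% ± 0.00381. Aldh1a1 had 42.5 ± 3.00 times the reads of Aldh1a2 and 606 ± 15.4 times those of Aldh1a3. The ranges of the 3 genes did not overlap.

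Aldh1a1 has a close copy in the mouse, Aldh1a7, and RSEM divides reads that match both. The expected counts show this division directly. For 8 of the 9 genes the expected count was a whole number in every library, as for 59.9% of expressed symbols, so no division of their reads is seen. Aldh1a1 was the exception, with 163118.24, 172709.1 and 175097.61 expected counts, and Aldh1a7 had 2801.76, 2866.9 and 2483.39. In each library the 2 fractions added up to a whole read. Aldh1a7 stood at 52.6 ± 5.46 CPM, or 1.57% ± 0.154 of the reads of the pair. Giving all its reads to Aldh1a1 would therefore move Aldh1a1 by less than the spread between libraries, to 3347 CPM, while the level of Aldh1a7 itself is uncertain. The reverse case, reads counted for Aldh1a1 that came from Aldh1a7, was not tested.

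Nearly all reads of CYP26 genes came from Cyp26b1. Cyp26b1 gave 277, 305 and 272 CPM, from 13249, 17065 and 14069 reads, with library 2 the highest and a mean of 285 ± 17.5 CPM, at rank 611 of all symbols. Cyp26a1 had 0, 0 and 1 read. A count of 0 allows up to 0.0628 CPM in library 1 and 0.0536 CPM in library 2 (3 counts, counting error only). Over the 3 libraries the reads of Cyp26b1 and Cyp26a1 stood at 44383 to 1 (exact 95% interval of the ratio 7965 to 1753075, counting error only). The other family member, Cyp26c1, also had 1 read in all.

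The promoter windows of Cyp26a1 and Cyp26b1 differ in a feature tied to retinoic acid. Retinoic acid receptors are known to bind a direct repeat of a half-site with a spacer of 5 bases, called DR5, where a half-site is AGGTCA or AGTTCA or GGGTCA or GGTTCA. Both strands of RefSeq windows of 300 bases (250 before and 50 after an annotated start, build GRCm38.p6) were searched, of which 0.0974% (32 of 32851) held a DR5. Of the 9 genes, 6 were in the table with 10 windows (Aldh1a3, Rdh10 and Crabp2 were not), and Cyp26a1 alone held the repeat. The receptor gene Rarb, a known target of retinoic acid, held one too. The 250 bases before the start are shown for a window without a match (Cyp26b1) and for those of Cyp26a1 and Rarb. They read 5′ to 3′ on the strand of the gene, with the DR5 in capitals.

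Cyp26b1, chr6:84593811-84594060, minus strand: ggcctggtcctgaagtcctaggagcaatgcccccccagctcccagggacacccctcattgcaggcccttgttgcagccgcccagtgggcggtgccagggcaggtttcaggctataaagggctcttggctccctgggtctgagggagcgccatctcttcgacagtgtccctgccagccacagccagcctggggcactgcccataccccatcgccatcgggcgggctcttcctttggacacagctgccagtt

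Cyp26a1, chr19:37697558-37697807, plus strand: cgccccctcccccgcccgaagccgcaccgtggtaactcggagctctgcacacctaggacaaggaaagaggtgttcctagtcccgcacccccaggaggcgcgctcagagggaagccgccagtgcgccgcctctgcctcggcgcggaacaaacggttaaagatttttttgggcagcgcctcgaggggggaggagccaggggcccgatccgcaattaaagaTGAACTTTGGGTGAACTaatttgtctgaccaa

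Rarb, chr14:16575477-16575726, minus strand: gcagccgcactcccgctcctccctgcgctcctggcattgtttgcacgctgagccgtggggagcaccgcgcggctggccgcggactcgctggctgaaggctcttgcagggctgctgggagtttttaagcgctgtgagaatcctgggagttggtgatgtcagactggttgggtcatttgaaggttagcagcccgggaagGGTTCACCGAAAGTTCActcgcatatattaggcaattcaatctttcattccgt

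In Cyp26a1 the repeat lies 32 to 16 bases before the annotated start and reads on the opposite strand, and in Rarb it lies 53 to 37 bases before the start on the gene's own strand. Of the 8 symbols of the RNA-seq table with a DR5 in a window, 2 were expressed, against 47.1% of all symbols. These were Blvrb, a biliverdin reductase gene (4.38 CPM), and Prokr2, a prokineticin receptor gene (3.11 CPM). Cyp26a1 with its single read and Rarb at 0.419, 0.589 and 0.425 CPM were among the 6 that were not expressed. The share of 47.1% also covers symbols without a window, and the share among symbols with a window is not given here. With 8 symbols the count is not told apart from 47.1%, and a link of the repeat to expression was not tested. A match is a run of letters and was not tested as a binding site, and the window says nothing of sites farther away. Repeats with a spacer of another length were not searched.

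Synthesis genes outnumbered degradation genes in reads, and Aldh1a1 alone set that order. The summed CPM of Aldh1a1, Aldh1a2, Aldh1a3 and Rdh10 was 3516, 3169 and 3473, against 277, 305 and 272 for Cyp26a1 and Cyp26b1. The ratio was 12.7, 10.4 and 12.8, with a mean of 11.9 ± 1.34. Library 2 had the lowest ratio, with the lowest synthesis sum and the highest degradation sum of the 3. Without Aldh1a1 the ratio was 0.366, 0.281 and 0.325, with a mean of 0.324 ± 0.0426, so the remaining synthesis genes together had fewer reads than Cyp26b1 in every library. Reads of different genes were compared without their lengths, and RNA levels are not enzyme activities. A sign-flip test over 3 libraries cannot go below an exact two-sided p of 0.25, and none was run.

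Both CRABP genes, for the cellular binding proteins of retinoic acid, stayed below 1 CPM in every library. Crabp1 gave 0.356, 0.286 and 0.348 CPM, from 17, 16 and 18 reads. Crabp2, which carries retinoic acid to its receptors, gave 0.900, 0.732 and 0.445 CPM, from 43, 41 and 23 reads, with library 3 the lowest. Fabp5, a fatty acid binding protein that can also bind retinoic acid, stood at 107 ± 10.1 CPM.

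In falling order of reads the members ran Aldh1a1, Cyp26b1, Stra6, Aldh1a2, Rdh10, Aldh1a3, Crabp2, Crabp1 and Cyp26a1. Of the 8 pairs of neighbours in that order, 1 overlapped, Stra6 (82.4 to 105 CPM) and Aldh1a2 (72.1 to 86.7 CPM). Aldh1a2 was the higher of this pair in library 1 and Stra6 in libraries 2 and 3. The other 7 pairs did not overlap. The 2 genes of a pair were read in the same 3 libraries, so their values are paired. An exact sign-flip test over 3 libraries cannot go below a two-sided p of 0.25, and none was run.

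**Figure D2:**
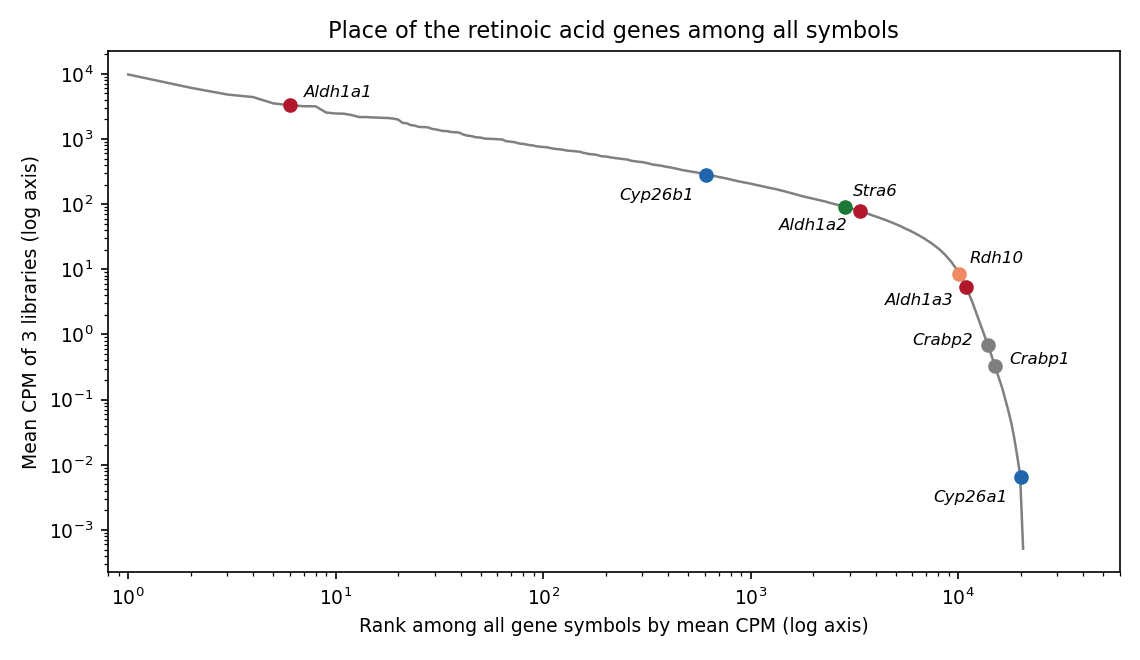
Mean CPM of all gene symbols against their rank, both on log axes, with the 9 genes marked and coloured by role as in the plot of CPM by library. Aldh1a1 sits at rank 6 and Cyp26b1 at rank 611, Stra6 and Aldh1a2 lie side by side, and Crabp2, Crabp1 and Cyp26a1 lie on the steep fall of the curve.

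The wider retinoid pathway was measured through 65 different genes, of which 40 were expressed, against 47.1% of all symbols. The same share stands beside the count of each list below. Lists of 13 genes or fewer were not tested against it. Of the 56 that are not among the 9 described, 34 were expressed. Uptake and storage had 4 of 13 expressed, with a list median of 0.180 CPM. After Lpl, a lipoprotein lipase (322 ± 17.4 CPM), and Stra6 came Dgat, an older symbol of the acyltransferase gene Dgat1 (21.9 ± 1.32 CPM), and Lrat, which esterifies retinol for storage (1.30 ± 0.147 CPM).

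Enzymes that can oxidise retinol had 6 of 11 expressed, with a list median of 1.66 CPM. The alcohol dehydrogenase gene Adh1 was read most, at 113 ± 14.0 CPM, followed by Rdh10, Rdh1 (3.96 ± 0.407 CPM) and Rdh16 (2.21 ± 0.325 CPM), while Dhrs9 had 0 reads in all libraries. Genes listed for the reverse step, reduction of retinaldehyde, had 5 of 6 expressed with a median of 17.4 CPM. They were led by Rdh11 (34.3 ± 1.31 CPM), Rdh13 (29.7 ± 0.395 CPM), Dhrs4 (21.2 ± 0.973 CPM) and Rdh14 (13.51 ± 1.09 CPM). Of the retinaldehyde oxidation list, with 4 of 5 expressed, the remaining gene Aldh8a1 had 1 read in all.

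Receptors had 5 of 7 genes expressed, with a list median of 25.5 CPM. Rara (135 ± 7.35 CPM) was the receptor of retinoic acid with the most reads, against 1.71 ± 0.378 CPM for Rarg and 0.478 ± 0.0966 CPM for Rarb. Its partners Rxra (60.7 ± 3.44 CPM) and Rxrb (59.2 ± 5.30 CPM) were expressed, and Rxrg (0.407 ± 0.0346 CPM) was not. Ppard, which can take up retinoic acid delivered by FABP5, stood at 25.5 ± 1.59 CPM. All 10 co-regulator genes measured were expressed with a median of 106 CPM, led by the co-repressor gene Ncor1 (284 ± 8.58 CPM), the co-activator genes Ncoa2 (206 ± 9.95 CPM) and Ep300 (197 ± 5.80 CPM), and the deacetylase gene Hdac3 (124 ± 10.8 CPM).

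Genes known as targets of retinoic acid in other cells had 7 of 13 expressed, with a list median of 2.09 CPM, and 5 of the list (Rarb, Cyp26a1, Cyp26b1, Crabp2 and Stra6) are described above. Apart from Cyp26b1 and Stra6, the highest were Tgm2, a transglutaminase (54.0 ± 7.50 CPM), and the homeobox gene Meis1 (42.3 ± 2.64 CPM). Dhrs3, which reduces retinaldehyde, stood at 3.54 ± 0.479 CPM. Stra8, the gene that retinoic acid induces in germ cells entering meiosis, stood at 0.195 ± 0.0462 CPM.

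**Figure D3:**
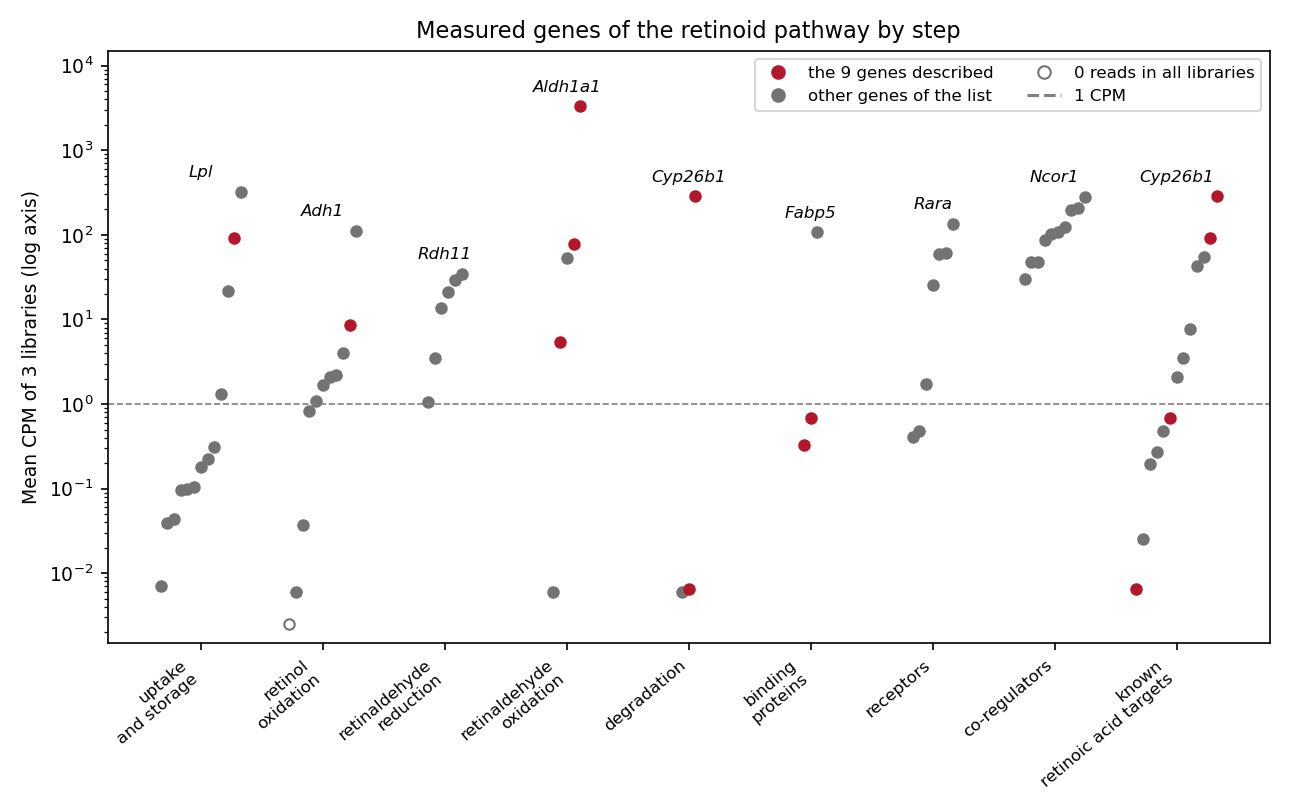
Mean CPM of 3 libraries (log axis) of every measured gene of each retinoid list, with the 9 genes described in red, other genes in grey and the dashed line at 1 CPM. The gene with the most reads in each list is named, Aldh1a1 stands above all others, and the degradation list has 1 gene above the line and 2 with 1 read each.

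The expressed members did not all share a pattern over the libraries. Aldh1a1, Aldh1a2, Aldh1a3 and Rdh10 were each highest in library 1, at 1.04, 1.11, 1.06 and 1.06 of their mean. Stra6 (0.901) and Cyp26b1 (0.974) lay below their mean there. Relative to its own mean, library 3 was 1.15 for Stra6, 0.955 for Cyp26b1 and 1.03 for Aldh1a1, and library 2 was 1.07 for Cyp26b1 and 0.936 for Aldh1a1. Of the 6 expressed members, 2 (Stra6 and Aldh1a2) had a coefficient of variation above the median of expressed symbols. Several marker sums differed more between libraries. The summed fetal Leydig markers stood at 2157, 2508 and 1747 CPM (Insl3, which defines these cells, at 53.5, 87.8 and 23.2 CPM), interstitial progenitor markers (7 of 7 expressed) at 107, 126 and 75.2 CPM, and germ cell markers (8 of 11 expressed) at 72.9, 55.3 and 59.8 CPM.

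In library 2, where Leydig and interstitial markers were highest, Cyp26b1 was highest and Aldh1a1, Aldh1a2 and Aldh1a3 were lowest. Stra6 was highest in library 3, where those marker sums were lowest. Aldh1a2, like Aldh1a1, Aldh1a3 and Rdh10, was highest in library 1. So were the sums of germ cell, peritubular, endothelial, and mesonephric and coelomic epithelium markers. The last was 12.8, 11.6 and 11.2 CPM (3 of 6 expressed) and followed Emx2 (8.23, 6.86 and 5.68 CPM). Of that list Lhx2 was also highest in library 1, Pax2, Pax8 and Krt19 in library 3, and Upk3b in library 2. The part of these cell types in the members' levels was not tested. The sum of the Sertoli markers was 5467, 5944 and 4559 CPM, and its spread came mainly from Amh, at 2167, 2660 and 1319 CPM. Without Amh the sum was 3300, 3284 and 3241 CPM, though its genes did not move together. Sox9 (278, 283 and 217 CPM), Dhh and Sox8 were lowest in library 3. Gata4 (725, 745 and 761 CPM), Ptgds, Aard and Dmrt1 were highest there, and Wt1 and Fgf9 in library 1. The sums of the other lists were 30.8, 30.0 and 23.4 CPM for peritubular myoid cells (2 of 3 expressed), 36.2, 36.0 and 34.2 CPM for endothelium (4 of 6), 22.7, 34.3 and 22.8 CPM for blood and macrophages (2 of 5) and 3.89, 4.91 and 2.96 CPM for granulosa cells (2 of 5).

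Each of the sums other than those of Sertoli and Leydig cells lay below the level of Cyp26b1 alone. A sum depends on which genes are listed (Acta2 and Hba-a1 were not used), and the source of the Cyp26b1 reads was not tested. The most abundant genes of those lists were Pdgfra (28.7 ± 7.42 CPM) and Wnt5a (28.1 ± 7.28 CPM) for interstitial progenitors and Hbb-b1 (23.1 ± 6.04 CPM) for blood. For peritubular cells this was Tagln (15.7 ± 1.36 CPM), for endothelium Pecam1 (15.55 ± 0.997 CPM) and for germ cells Tdrd9 (13.9 ± 0.695 CPM). Emx2 led the mesonephric and coelomic epithelium list (6.92 ± 1.27 CPM). Of the granulosa list, Wnt4 (1.59 ± 0.578 CPM) and Rspo1 (1.39 ± 0.175 CPM) were expressed. Foxl2, which defines granulosa cells, was the lowest of that list, at 0.0685 ± 0.0489 CPM.

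**Figure D4:**
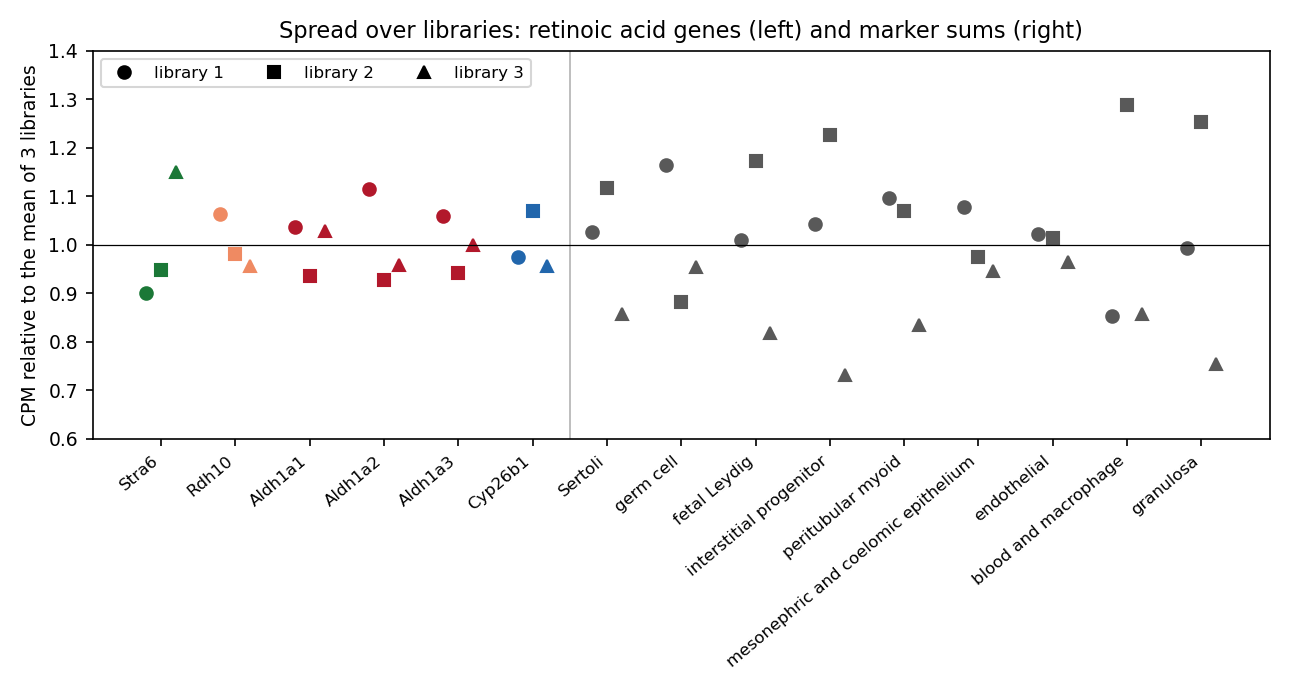
CPM in each library relative to the mean of the 3, for the 6 expressed retinoic acid genes (left, coloured by role) and for the summed CPM of each cell marker list (right, grey). The retinoic acid genes stay between 0.901 and 1.15 of their mean, while the interstitial progenitor sum runs from 0.732 to 1.23.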

How the data were processed

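Per the labels' protocols, poly-A libraries of the 3 pools were run in 1 lane with 50 bp single-end reads. Per the submitters' processing notes, CASAVA 1.8.2, Bowtie 0.12.7 and RSEM 1.2.0 were used with build mm9. The gene annotation is not given in the sources used here. Per the file headers, the values deposited by the authors are square roots. From the values, each library's expected counts had been divided by their 75th percentile of the rows with a value in at least 1 library.

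Squares were whole hundredths of a read in 100% of values above 0 (tolerance 0.05 hundredths), which returned the expected counts. CPM used the total of all 28427 rows. Where a symbol recurred, its row of highest mean was kept (426 rows were exact repeats). The columns carry only a number, so libraries are named after them. Symbols without a row were looked up through RefSeq synonyms, and Rdh9, Meis2, Acta2 and Hba-a1 were not used here. A few further list genes are not reported here and are in no count. Recovery of counts was tested on simulated data. Python 3.11.15, pandas 2.3.3, numpy 2.4.6 and scipy 1.17.1 were used.

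The members and lists were chosen with earlier results of these data known. All members were named. Of other retinoid lists the 4 genes of highest mean and genes at 0 were named, and of marker lists genes among the 2 highest. Rarg, Rarb, Rxrg, Dhrs3, Stra8, Aldh8a1, Cyp26c1, Insl3 and Foxl2 were added for their known roles after their values were seen. The other Sertoli markers, Pax2, Pax8, Krt19 and Lhx2 were also added after their values were seen, to show what marker sums hold. The DNase and H3K27ac lists were not used here, because gene starts in mm9 were not at hand. P-values are absent, and the SD measures only the spread between 3 pools. The promoter search was added after the data were seen.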

Additional observations from a re-analysis of the deposited data

How the results depend on the processing

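The count of 6 expressed genes was the same at 0.5 or 5 CPM in every library (50.5% and 39.1% of all symbols pass these), with a mean of 1 CPM in place of every library, with TMM-scaled library sizes, with the authors' upper-quartile scaling and without any 1 library. The ratio of synthesis to degradation reads fell from 11.9 to 0.324 without Aldh1a1, which shows that this gene sets it. It was 11.5 to 12.7 when each library was left out in turn, 11.9 with distinct rows of a symbol summed and 12.1 with Aldh1a7 added, an alternative chosen after seeing the data. All 55 recomputed levels of single members stayed within 1 SD of their main value, though for Cyp26a1 this rests on 1 read. For levels without a library this was fixed in advance, because leaving out 1 of so few libraries always moves a mean by less than 1 SD. Summing distinct rows of a symbol left the level of every member unchanged. The limit of 1 SD therefore tested only the scaling and Aldh1a7 alternatives. The Aldh1a7 alternative covered only reads moved to Aldh1a1, not the reverse. Leaving out a library moved the level of the 8 members other than Cyp26a1 by at most 17.9%. The scaling, summing and Aldh1a7 alternatives moved it by at most 1.60%. Depth limits Cyp26a1, Crabp1 and Crabp2, with 1, 51 and 107 reads in all. Values per coding length and overlaps of promoters with DNase peaks or H3K27ac domains were planned and not run, for want of lengths and of gene starts in mm9. No paired analysis was possible because the RNA libraries form 1 group.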

Other observations

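Among symbols of the RNA-seq table, 8 had a DR5 in a RefSeq promoter window. Beside Blvrb, Prokr2, Cyp26a1 and Rarb, described above, these were Hbb-y (0.625 CPM), Ppbp (0.0124 CPM), Tnfsf13b (0.0701 CPM) and Prss27, which had 0 reads. The window search was chosen after the levels were seen, and the table of windows is not complete.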
